A study of Mus musculus with 30 samples.

Results

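The protocadherins and Celsr cadherins were measured here as 38 genes, of 18193 genes that had at least 1 probe set with exactly 1 symbol in the platform annotation. They are the genes whose symbol begins with Pcdh or Celsr, and the probe set of a gene with the highest signal, averaged over all arrays, stands for it. They comprise 22 genes of the beta cluster, 1 gene of the gamma cluster (Pcdhgc4), 4 delta-1 protocadherins (Pcdh1, Pcdh7, Pcdh9 and Pcdh11x), 5 delta-2 protocadherins (Pcdh8, Pcdh10, Pcdh17, Pcdh18 and Pcdh19), 3 other nonclustered protocadherins (Pcdh12, Pcdh15 and Pcdh20) and the 3 Celsr genes. A further 14 genes, all of the alpha cluster, are named only by 6 probe sets that carry several symbols and were not analysed here. Brain, kidney and liver were taken at day 22 from 10 male Avy/a mice, with 2 mice, numbered 1 and 2, in each of 5 coat classes, which run from yellow through slightly mottled, mottled and heavily mottled coats to pseudoagouti. Every mouse carried the viable yellow allele Avy over the nonagouti allele a, in a colony kept by sibling mating, and no mouse without Avy was analysed. The Avy allele first arose in the C3H/HeJ strain. Total RNA was hybridised to 30 Affymetrix Mouse Genome 430 2.0 arrays, and the 3 arrays that share a class and a number were taken as 1 mouse. The coat class was read from the fur, and how far it ranks the activity of the agouti gene in the organs measured was not examined here. The series looked for genes that differ in expression from mouse to mouse in the same way in each tissue.

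The deposited signal is a linear intensity scaled on each array to a trimmed mean of 500.0, and it can be compared between arrays for 1 probe set but not between probe sets. The median signal of an array was 138.2 to 205.3 in brain, 114.3 to 152.6 in kidney and 105.2 to 144.6 in liver, and no detection calls were used. The tissue labels were checked with marker lists. All 8 neuron, all 6 astrocyte and 5 of 6 oligodendrocyte markers were higher in brain than in both other tissues, against 19.6% of all probe sets tested. The mean log2(signal + 16) of the kidney tubule list was 6.01 in brain, 13.17 in kidney and 5.93 in liver, and that of the hepatocyte list was 6.85 in brain, 7.91 in kidney and 14.77 in liver. In single kidneys the hepatocyte list reached 10.28, in the mouse yellow 2.

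Protocadherins are the largest group of the cadherin superfamily, cell surface proteins that bind partners of their own kind between neighbouring cells. The clustered protocadherins lie in tandem arrays of exons with a promoter each. Single neurons use different combinations of them, which give a cell a surface identity used in self-avoidance of its branches. The nonclustered delta protocadherins are each expressed in particular brain circuits, and several delta-2 members recruit the WAVE complex, which drives actin branching. The Celsr proteins are adhesion G protein-coupled receptors with a cadherin ectodomain, the vertebrate counterparts of Flamingo in Drosophila, and belong to the core of planar cell polarity, the pathway that orients cells within a sheet and guides axon tracts.

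Promoter windows of 300 bases (250 before to 50 after the start of the gene, RefSeq, GRCm38.p6) were used for 11 of the 38 genes. No beta cluster gene was among the 11, nor were Pcdhgc4, Pcdh1, Pcdh11x, Pcdh12 and Celsr1. The medians below therefore describe these 11 genes and not the family as a whole. The 11 windows held a median of 18 CG dinucleotides, from 4 in Pcdh20 to 40 in Celsr2. Over 27025 such windows the median was 7 and the quartiles were 3 and 21. The ratio of observed to expected CG had a median of 0.64 in the 11 windows and 0.39 over all windows, and the GC content a median of 62.33% and 52.67%. The windows of Celsr3 and Pcdh10, the genes whose coat slope is described further on, and of Celsr2, which held the most CG, are shown 5′ to 3′ with each CG in capitals, because CG is the site of DNA methylation in promoters. Celsr3 lies on the plus strand at chr9:108825795-108826094 and Pcdh10 on the plus strand at chr3:45378148-45378447, while Celsr2 lies on the minus strand at chr3:108415530-108415829.
Celsr3: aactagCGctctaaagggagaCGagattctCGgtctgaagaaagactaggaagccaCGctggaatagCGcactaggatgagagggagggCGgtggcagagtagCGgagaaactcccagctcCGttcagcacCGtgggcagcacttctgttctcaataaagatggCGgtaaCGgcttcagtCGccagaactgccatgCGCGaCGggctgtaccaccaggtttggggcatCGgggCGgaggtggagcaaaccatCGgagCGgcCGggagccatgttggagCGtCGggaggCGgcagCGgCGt
Pcdh10: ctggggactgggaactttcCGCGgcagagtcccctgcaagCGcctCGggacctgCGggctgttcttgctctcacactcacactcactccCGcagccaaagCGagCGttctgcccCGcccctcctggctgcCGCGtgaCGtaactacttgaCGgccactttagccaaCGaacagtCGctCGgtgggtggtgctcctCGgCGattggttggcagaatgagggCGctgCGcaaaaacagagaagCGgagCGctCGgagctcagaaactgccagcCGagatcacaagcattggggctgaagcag
Celsr2: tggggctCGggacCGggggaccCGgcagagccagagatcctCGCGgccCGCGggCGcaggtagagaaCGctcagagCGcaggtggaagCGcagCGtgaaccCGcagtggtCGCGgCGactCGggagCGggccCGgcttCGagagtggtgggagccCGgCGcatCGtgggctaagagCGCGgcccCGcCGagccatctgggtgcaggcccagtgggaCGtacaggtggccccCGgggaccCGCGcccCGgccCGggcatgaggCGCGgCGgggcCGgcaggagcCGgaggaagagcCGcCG
The Celsr3 window held 25 CG and the Pcdh10 window 24, and both had a high ratio of observed to expected CG, at 0.95 and 0.82, as did Celsr2 with 0.94.

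The first comparison set brain against kidney and liver within mice. Most of the family was brain-rich. Over all 38 genes, without a filter on low signal, 26 were higher in brain than in liver and 2 were lower, against 20.9% and 12.8% of all 45037 probe sets. For brain against kidney 24 were higher and 3 lower, against 15.8% and 12.6% of all probe sets. Brain exceeded both other tissues in 22 of the 38, where 13.1% of all probe sets did so, and lay below both in Pcdh1 and Pcdh12 only, where 7.05% did so. A gene counted as higher or lower when its adjusted p was under 0.05 and its log2 difference at least 1. Each member is the strongest probe set of its gene, while the shares here and below are over all probe sets. Those include weaker probe sets of a gene and probe sets without a symbol, so they are not shares of genes. In bulk tissue a lower number of expressing cells and a lower amount of RNA per cell cannot be told apart.

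Of the 38 genes, 22 reached the signal filter of 242 in the mean of at least 1 tissue, and 15 of these did so in brain alone, so that an excess in brain among the 22 follows in part from the filter. Among the 22, 18 were higher and 2 lower in brain than in liver, where 30.2% and 20.4% of all 22519 probe sets that passed were called. In brain against kidney 17 were higher and 3 lower, where 21.9% and 20.7% were called. The median log2 difference of the 22 was 3.11 for brain minus liver and 2.11 for brain minus kidney, and that of all 22519 was 0.15 and -0.03. The 10 brain values lay wholly above the 10 liver values in 18 of the 22 (30.8% of all probe sets) and wholly below them in 2 (21.5%). They lay wholly above the 10 kidney values in 16 (23.7%) and wholly below them in 3 (22.1%). Kidney values lay wholly above liver values in 4 (19.3%) and wholly below them in 1 (10.1%). The weakest gene that passed the filter was Pcdh15, with 242.5 in its highest tissue mean, and the strongest that failed was Pcdhb19, with 173.1.

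**Figure D1:**
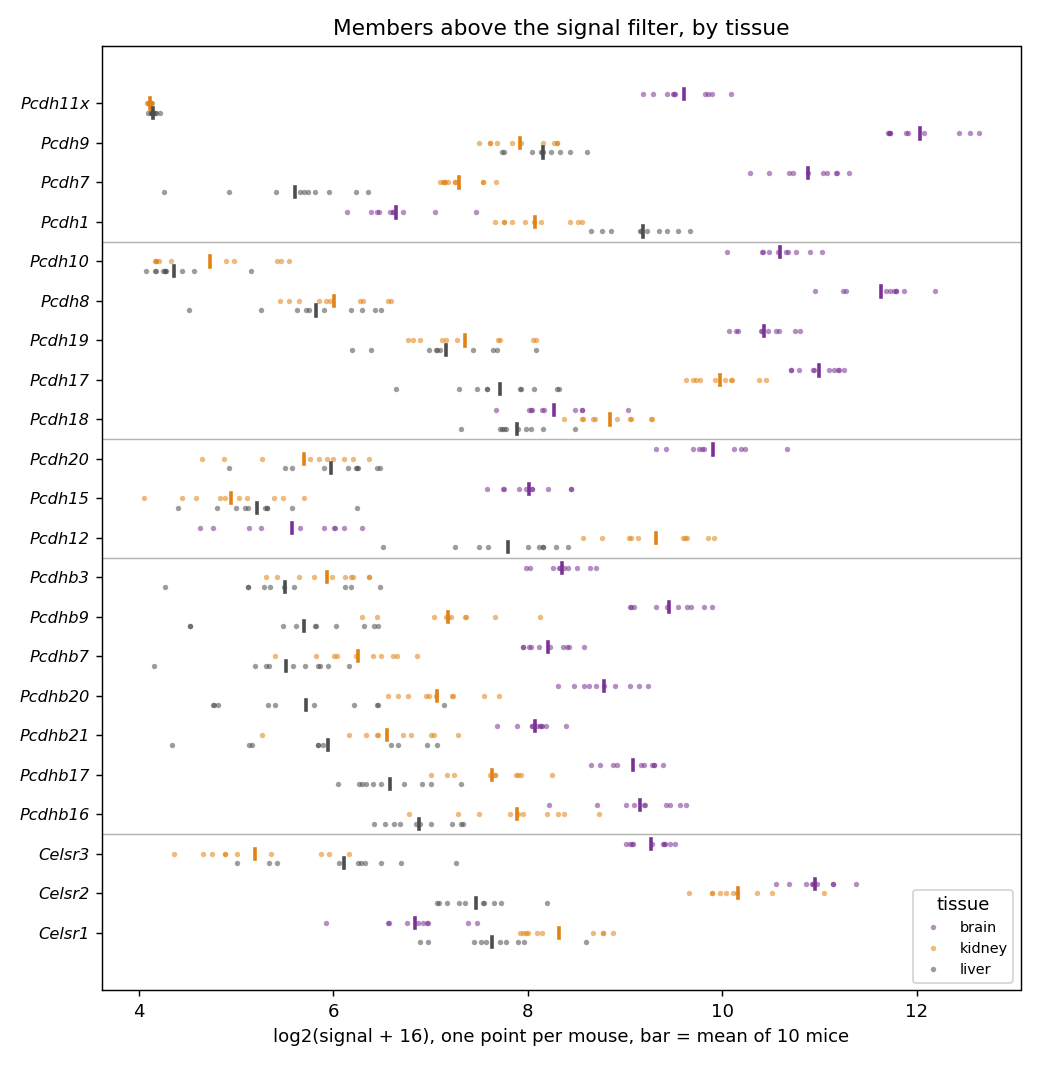
Log2(signal + 16) of the 22 members above the signal filter, with 1 point for each mouse in brain, kidney and liver and a bar at the mean of 10 mice. By the test brain is higher than both other tissues for 17 genes, against 19.6% of all probe sets tested. Pcdh1 and Pcdh12 lie to the left in brain, with Pcdh1 farthest right in liver and Pcdh12 in kidney.

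Among single genes the delta-2 protocadherin Pcdh10 had the largest difference of brain from the nearer tissue, with the offset of 16 used here. The delta-1 genes had the larger medians, 4.58 from liver and 3.85 from kidney, against 3.28 and 3.07 in the delta-2 genes. Pcdh10, which guides axons through the ventral forebrain and recruits the WAVE complex, had 1038.1, 1548.7 and 2058.6 in brain as the lowest, median and highest signal of 10 mice, against 2.0, 8.9 and 30.6 in kidney and 0.8, 3.3 and 19.6 in liver. The lowest brain lay far above the highest kidney and the highest liver. On the log2(signal + 16) scale brain exceeded kidney by 5.86 ± 0.17 (SE, 58.0-fold, adjusted p = 1.92e-20) and liver by 6.23 ± 0.17 (75-fold, adjusted p = 3.06e-21), in 10 of 10 mice each. These folds are ratios of signal + 16 and understate the difference where the other tissue is near 0. The 5 other Pcdh10 probe sets were higher in brain too, with log2 differences of 2.82 to 5.83 from kidney and 2.48 to 5.99 from liver. 

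Pcdh8, also known as arcadlin or paraxial protocadherin and induced by neuronal activity in rat hippocampus, had 1962.9, 3417.6 and 4632.0 in brain, against 27.8, 45.6 and 80.6 in kidney and 6.8, 41.0 and 74.1 in liver. Its difference was 5.61 ± 0.17 from kidney and 5.81 ± 0.17 from liver. Pcdh19, an X-linked gene mutated in an epilepsy of girls in humans, had 1056.4, 1370.1 and 1762.3 in brain, against 92.9, 132.8 and 255.6 in kidney and 56.9, 119.1 and 255.5 in liver. For both genes no brain value overlapped another tissue.

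Pcdh17, which acts at corticostriatal synapses in mouse, was above the signal filter in kidney as well as in brain. It had 1651.3, 2061.5 and 2416.1 in brain, 771.2, 989.1 and 1381.4 in kidney and 84.0, 200.6 and 304.5 in liver, and the 3 tissues did not overlap. Brain exceeded kidney by 1.02 ± 0.14 (adjusted p = 2.59e-07), just past the fold threshold, and kidney exceeded liver by 2.27 ± 0.14 (adjusted p = 1.34e-13). Pcdh18, which binds the adaptor Dab1, was the delta-2 gene with no called difference. Its signal was 188.5, 268.8 and 506.0 in brain, 316.1, 430.5 and 604.6 in kidney and 143.0, 213.1 and 342.2 in liver, with overlap in all pairs of tissues. Kidney had the highest mean and exceeded liver by 0.96 ± 0.14 (adjusted p = 1.76e-06), in 10 of 10 mice. The difference was -0.57 ± 0.14 for brain minus kidney and 0.39 ± 0.14 for brain minus liver, with adjusted p of 0.000781 and 0.0153. All 3 differences were below the fold threshold.

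Of the delta-1 genes 3 of 4 were higher in brain than in both other tissues. This held with and without the signal filter, against 19.6% and 13.1% of all probe sets. Pcdh11x, an X-linked protocadherin, had 565.0, 711.2 and 1075.2 in brain, while all 10 kidneys lay between 0.9 and 1.6 and all 10 livers between 1.1 and 2.6. Its difference was 5.50 ± 0.14 from kidney and 5.46 ± 0.14 from liver (45.1-fold and 43.9-fold), and the other 2 tissues differed from each other by -0.04 ± 0.14 (kidney minus liver, adjusted p = 0.822). With kidney and liver this close to 0 the size of the brain difference is set by the offset. It was 8.40 from kidney and 8.14 from liver for an offset of 1, where it passed the 7.42 of Pcdh10 from kidney, and 3.66 and 3.65 for an offset of 64. Pcdh9, expressed in cortical circuits, had 3308.4, 3802.9 and 6345.5 in brain, against 164.4, 220.6 and 299.3 in kidney and 196.7, 267.5 and 373.9 in liver. Both genes separated brain from the other tissues without overlap.

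Pcdh7 also separated kidney from liver. It had 1227.0, 1973.2 and 2503.9 in brain, 121.2, 132.6 and 187.4 in kidney and 3.2, 36.5 and 66.1 in liver. Brain exceeded kidney by 3.59 ± 0.14 and kidney exceeded liver by 1.69 ± 0.14 (adjusted p = 1.15e-10), with no overlap. A weaker Pcdh7 probe set below the filter gave -0.34 for brain minus kidney and 1.40 for brain minus liver, so the order of brain and kidney differed between probe sets of this gene. Among the 8 genes with over 1 probe set above the filter, none had a brain difference of unlike sign.

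Pcdh1, a protocadherin known from airway epithelium, ran the other way. It had 54.7, 80.6 and 160.6 in brain, 186.1, 243.2 and 360.4 in kidney and 384.5, 569.0 and 795.9 in liver, in that order in 10 of 10 mice. The log2 difference was -1.42 ± 0.14 for brain minus kidney (adjusted p = 8.89e-10), -2.53 ± 0.14 for brain minus liver (5.95e-15) and -1.11 ± 0.14 for kidney minus liver (1.19e-07). It was the only one of the 22 genes lower in kidney than in liver, where 9.85% of all probe sets were called.

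Pcdh12 is an endothelial protocadherin found at contacts between vascular cells. Its signal was 8.8, 39.1 and 62.5 in brain, 362.9, 650.3 and 948.3 in kidney and 75.4, 251.3 and 324.0 in liver, and the 3 tissues did not overlap. Brain was lower than both, with a log2 difference of -3.74 ± 0.19 from kidney (13.4-fold, adjusted p = 1.75e-15) and -2.22 ± 0.19 from liver (4.66-fold, adjusted p = 5.43e-11). Markers of endothelial cells had the same order: 4 of 7 were lower in brain than in both other tissues, where 12.5% of all probe sets were, and their mean log2(signal + 16) was 8.02 in brain, 10.25 in kidney and 9.06 in liver. None of the 7 was higher in brain than in both. Their part in the Pcdh12 difference was not tested. The weaker Pcdh12 probe sets, which lay below the filter, gave -0.66 and -1.46 for brain minus kidney but 0.02 and -0.28 for brain minus liver.

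The other nonclustered genes were brain-rich. Pcdh20 had 620.0, 876.2 and 1604.0 in brain, against 9.1, 43.3 and 66.4 in kidney and 14.3, 57.1 and 72.9 in liver, a difference of 4.20 ± 0.20 from kidney and 3.93 ± 0.20 from liver. Pcdh15, a component of the tip links of hair cells in the inner ear, had 175.6, 241.4 and 333.1 in brain, against 0.6, 15.1 and 35.8 in kidney and 5.2, 21.1 and 59.6 in liver, a difference of 3.06 ± 0.20 and 2.80 ± 0.20. In neither gene did brain overlap another tissue.

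**Figure D2:**
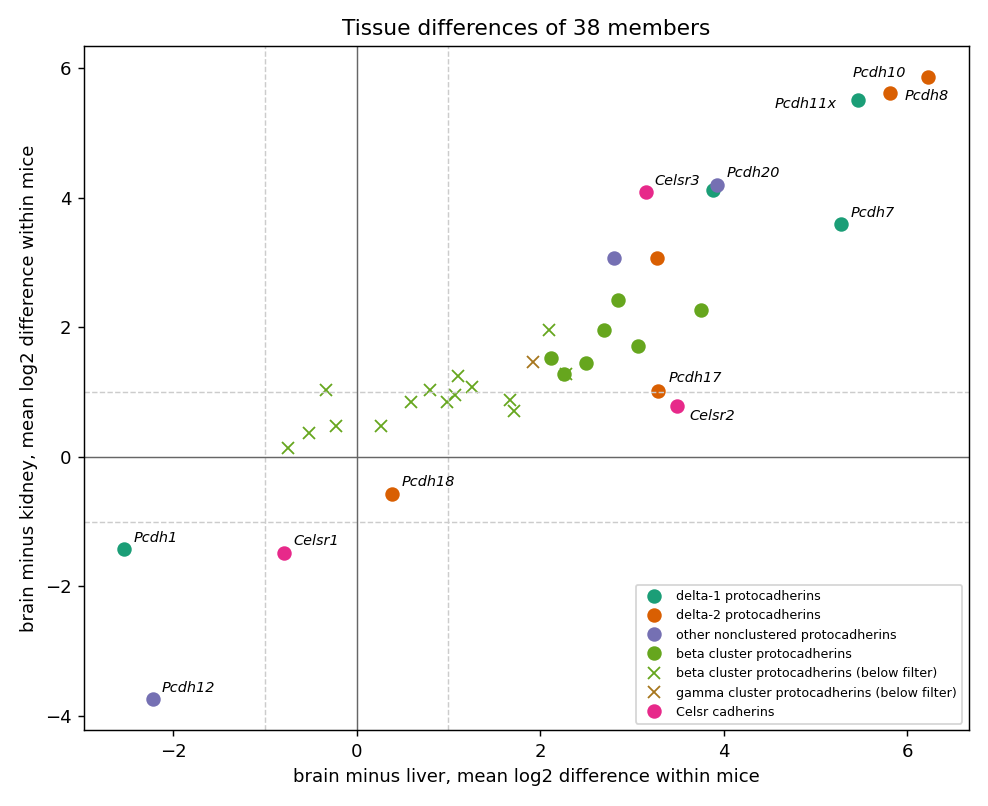
Mean log2 difference within 10 mice, brain minus liver (x axis) and brain minus kidney (y axis), for all 38 members, coloured by subfamily. Crosses are the 16 genes below the signal filter and dashed lines mark a difference of 1, and most genes lie at upper right, with Pcdh10 farthest out and Pcdh12, Pcdh1 and Celsr1 at lower left.

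The beta cluster is the largest group of members, and every beta gene called between brain and another tissue was higher in brain. Without the signal filter, 14 of its 22 genes were higher in brain than in liver, against 20.9% of all probe sets. Against kidney 13 were higher (15.8% of all), and 11 were higher than in both (13.1% of all). None was lower in brain than in liver or kidney, against 12.8% and 12.6% of all probe sets. Only 7 passed the filter, all through brain, so that their excess in brain follows in part from the filter. Each of the 7 was higher in brain than in both other tissues, against 19.6% of all probe sets that passed. Pcdhb3 had the largest difference from the nearer tissue, with 236.6, 310.1 and 400.6 in brain, against 23.5, 50.4 and 66.4 in kidney and 3.3, 26.9 and 73.3 in liver. Its log2 difference was 2.42 ± 0.21 from kidney (adjusted p = 1.28e-10) and 2.85 ± 0.21 from liver (adjusted p = 3.66e-12).

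Pcdhb9 had 513.2, 701.0 and 933.4 in brain, 62.7, 130.4 and 263.4 in kidney and 7.0, 40.4 and 71.8 in liver. It was higher in kidney than in liver by 1.48 ± 0.19 (adjusted p = 1.82e-07), as were Pcdhb20 by 1.35 ± 0.22 and Pcdhb17 by 1.05 ± 0.13, while Pcdhb16 was just short of the fold threshold. Over the 22 genes above the filter, 7 were higher in kidney than in liver, where 18.6% of all probe sets were called. These 7 were Pcdhb9, Pcdhb17, Pcdhb20, Pcdh7, Pcdh12, Pcdh17 and Celsr2. Over all 38 without the filter, 8 were higher and 2 lower in kidney than in liver, against 12.1% and 7.51% of all probe sets.

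Pcdhb16 had 281.8, 572.6 and 770.9 in brain and 94.0, 226.8 and 409.1 in kidney, which overlapped, and 69.6, 100.9 and 145.0 in liver. Brain was nevertheless higher than kidney in 10 of 10 mice, by 1.27 ± 0.16 (adjusted p = 8.76e-08). The other beta genes above the filter, Pcdhb7, Pcdhb17, Pcdhb20 and Pcdhb21, exceeded kidney by 1.45 to 1.95 and liver by 2.12 to 3.07.

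The 16 genes below the filter were 15 beta genes and Pcdhgc4, with a highest tissue mean of 24.8 to 173.1. In 12 of them that mean was in brain and in 4 elsewhere. Pcdhgc4, a gamma-cluster gene of the C type, had a mean signal of 81.1 in brain, 17.5 in kidney and 6.8 in liver and exceeded kidney by 1.46 ± 0.25 and liver by 1.92 ± 0.25 (adjusted p = 1.05e-05 and 1.12e-07). Pcdhb12 was the weak beta gene with the largest difference from the nearer tissue, 1.96 ± 0.18 from kidney and 2.10 ± 0.18 from liver. Pcdhb6 and Pcdhb8 had their highest means in liver, with 59.7 and 40.8 in brain, 22.4 and 42.6 in kidney and 77.8 and 86.8 in liver. Without the filter Pcdhb6 was called lower in kidney than in liver, at -1.36 ± 0.26 (kidney minus liver, adjusted p = 7.97e-05), in 10 of 10 mice. Whether such low values lie above background is not known here, since no detection calls were used.

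The 3 Celsr genes had 3 different patterns. Celsr3, which acts with Fzd3 in the guidance of forebrain axon tracts, had 498.0, 629.5 and 712.4 in brain, against 4.6, 14.9 and 55.7 in kidney and 16.3, 61.1 and 137.0 in liver. No brain value overlapped another tissue, and the difference was 4.08 ± 0.20 from kidney (16.9-fold, adjusted p = 7.00e-16) and 3.15 ± 0.20 from liver (8.89-fold, adjusted p = 1.03e-13). Kidney minus liver was -0.92 ± 0.20 (adjusted p = 0.000218), under the fold threshold, with kidney the lower in 9 of 10 mice.

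Celsr2, which with Celsr3 builds the cilia of ependymal cells, was high in both brain and kidney. It had 1480.3, 1944.1 and 2635.1 in brain, 790.7, 1064.4 and 2092.3 in kidney and 118.3, 158.7 and 276.6 in liver. Kidney exceeded liver by 2.70 ± 0.14 (6.50-fold, adjusted p = 2.47e-15) without overlap, whereas brain and kidney overlapped and differed by 0.79 ± 0.14, with brain higher in 9 of 10 mice and the fold threshold not reached. Celsr1, which orients hair follicles and helps to close the neural tube, was lowest in brain. Its signal was 44.6, 102.8 and 162.1 in brain, 225.5, 261.6 and 454.0 in kidney and 102.2, 183.6 and 370.7 in liver. Brain minus kidney was -1.48 ± 0.16 (2.78-fold, adjusted p = 4.74e-09) with no overlap, and brain minus liver was -0.79 ± 0.16, which did not reach the fold threshold.

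Other genes of the same pathways were described by lists, and of all probe sets above the filter 19.6% were higher in brain than in both other tissues and 12.5% lower than both. Of 14 planar cell polarity genes above the filter, 5 (35.7%) were higher than both and none was lower than both. Their median log2 difference was 0.74 for brain minus liver and 0.02 for brain minus kidney, where all probe sets had 0.15 and -0.03. The higher genes include Fzd3, the Frizzled receptor that pairs with Celsr3, at 5.42 above liver and 3.42 above kidney, and Daam1, a formin of the pathway, at 6.78 and 5.75. Prickle2 and Ankrd6, cytoplasmic components, exceeded liver by 4.35 and 4.21 and kidney by 3.38 and 3.06, and Prickle1 was the fifth. Of 18 partners and effectors of protocadherins, 9 were higher in brain than in both, against 19.6% of all probe sets, and 1, the WAVE subunit Wasf2, was lower than both, against 12.5%. Their medians were 1.96 from liver and 1.54 from kidney. Among the higher genes Wasf1, the related subunit, exceeded liver by 5.04 and kidney by 4.99. The neuronal adhesion genes Ncam1 and Nlgn1 exceeded liver by 6.71 and 4.55 and kidney by 3.22 and 4.59.

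Of 13 regulators of the clustered genes, none was higher in brain than in both tissues, against 19.6% of all probe sets, and 2 were lower than both, a share near the 12.5% of all probe sets. Their medians were -0.21 from liver and -0.58 from kidney. The 2 lower genes were the DNA methyltransferase Dnmt3b, at -2.54 from liver and -1.52 from kidney, and the repressor Rest, at -1.24 and -2.07. Dnmt3a, the other de novo methyltransferase, was 2.04 above liver but only 0.92 above kidney. Of 26 other cadherins, 13 were higher in brain than in both, against 19.6% of all probe sets, and 5 were lower than both, against 12.5%. Their medians were 2.19 from liver and 1.90 from kidney. The classical neuronal cadherins Cdh10, Cdh8 and Cdh9 exceeded liver by 5.83, 5.65 and 4.60 and kidney by 6.06, 5.39 and 4.72, while the epithelial Cdh1 was among the lower ones, at -5.36 from liver and -5.69 from kidney. The other lower genes were Cdh5, an endothelial cadherin, Cdhr5 and the desmosomal cadherins Dsg2 and Dsc2.

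The second comparison asked how far the 22 genes differed between mice within a tissue. The SD over 10 mice, on log2(signal + 16), had a median of 0.30 in brain, 0.40 in kidney and 0.50 in liver. Over all probe sets that passed the filter these medians were 0.30, 0.31 and 0.32. In brain, where most of the family had its highest signal, 10 of the 22 exceeded the median of all probe sets, but in kidney 19 and in liver 18 did so. In kidney and liver most members had low signals and their SD depended on the offset added before the log. For an offset of 64 their median SD was 0.28 in kidney and 0.29 in liver. The median of all probe sets at that offset is not given here, so members and all probe sets were not compared at it. In brain the steadiest genes were Celsr3 and Pcdhb21, each with an SD of 0.19, and the most variable was Pcdh12 with 0.59, at a mean of 5.58, followed by Celsr1 with 0.44 and Pcdhb16 with 0.43.

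Pcdhb16 varied at a high signal. In brain it had 401.9 and 498.1 in the yellow mice, 281.8 and 687.5 in slightly mottled, 570.8 and 666.9 in mottled, 574.4 and 770.9 in heavily mottled and 530.1 and 741.2 in pseudoagouti mice, in the order mouse 1 and mouse 2. The mouse numbered 2 was the higher of the pair in all 5 classes. Pcdh12 in brain had 48.1 and 8.8, 44.0 and 19.0, 52.8 and 34.3, 22.3 and 11.2, and 62.5 and 48.8 in the same order of classes and mice, and there the mouse numbered 2 was the lower in all 5.

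The moderated F-test for a mouse effect shared by the tissues called none of the 22 genes, where 6.8% of all probe sets were called. At an unadjusted p under 0.05 it took 8 of the 22, against 25.3% of all probe sets. The smallest adjusted p belonged to Pcdh7 (adjusted p = 0.0808), whose mouse means spanned 1.12 log2 from heavily mottled 1 to pseudoagouti 2. With the mouse number taken out in each tissue, none was called, against 0.417% of all probe sets, and the only gene with an unadjusted p under 0.05 was Celsr3 (adjusted p = 0.301), against 15.7% of all. The ratio R of variation between mice to variation between tissues has the SD across tissues as its denominator. As 15 of the 22 genes passed the filter through brain alone, a low R follows in part from their brain excess and is no measure of steadiness between mice. Its median was 0.25, against 0.42 over all probe sets, and its highest value was 0.64 in Pcdh18, with none of the 22 above the 1.5 that 149 probe sets exceeded.

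The third comparison followed coat class from yellow, step 0, to pseudoagouti, step 4. None of the 22 genes was called in any fit. For higher toward pseudoagouti no probe set at all was called in any fit, and for lower 0.00444%, a single probe set, was called both in the mean of tissues and in kidney. In the mean of tissues 11 slopes were above 0 and 11 below, from -0.06 to 0.23 log2 per step. In brain 14 were above and 8 below 0, in kidney 7 and 15, and in liver 16 and 6. At an unadjusted p under 0.05 each of the 4 fits took 1 of the 22, against 1.9% of all probe sets in the mean of tissues, 1.45% in brain, 2.06% in kidney and 2.38% in liver. It was Celsr3 in the mean of tissues, kidney and liver, and Pcdh19 in brain, with a slope of -0.13 ± 0.045 (SE, adjusted p = 1).

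Celsr3 had the steepest slope of the family in the mean of tissues, 0.23 ± 0.057 log2 per step (adjusted p = 1 over all probe sets). A two-sided exact permutation test of this slope alone, over the 113400 assignments of the mice to the classes, gave p = 0.00377. That test was added after the slope had been seen, and Celsr3 and Pcdh10 had been singled out with earlier results of these data known. Its p therefore describes the ordering of these 10 mice, is not adjusted for that choice and cannot serve as support for the slope. The same holds for the exact permutation p of each tissue and of Pcdh10 given below. In kidney its signal was 4.6 and 13.5 in the yellow mice, 11.0 and 9.3 in slightly mottled, 16.1 and 25.0 in mottled, 42.6 and 13.6 in heavily mottled and 45.9 and 55.7 in pseudoagouti mice. Both pseudoagouti kidneys lay above every other kidney, and the yellow and slightly mottled kidneys, which overlapped each other, lay below the mottled and heavily mottled kidneys, which overlapped each other too. The slope there was 0.35 ± 0.088 (exact permutation p = 0.00206, adjusted p = 1 in limma).

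In liver Celsr3 had 26.8 and 50.6 in yellow, 60.2 and 24.3 in slightly mottled, 64.3 and 16.3 in mottled, 74.0 and 87.6 in heavily mottled and 137.0 and 62.0 in pseudoagouti mice. All yellow and slightly mottled livers lay below all heavily mottled and pseudoagouti livers, while the mottled livers overlapped the yellow, slightly mottled and pseudoagouti ones. The slope in liver was 0.29 ± 0.116 (exact permutation p = 0.0537, adjusted p = 1 in limma). In brain, where its signal was highest, it had 690.3 and 521.9, 660.9 and 513.3, 526.0 and 498.0, 712.4 and 664.4, and 654.0 and 605.1 from yellow to pseudoagouti, and the slope was 0.04 ± 0.052 (exact permutation p = 0.419). The slope thus rested on the organs in which Celsr3 was lowest, with no kidney above 55.7 and no liver above 137.0. A test of unequal slopes between tissues, added after these slopes had been seen, gave an adjusted p = 1.

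Marker lists were set beside these values. The hepatocyte list in kidney averaged 8.99 and 10.28 in yellow, 7.51 and 8.53 in slightly mottled, 6.67 and 8.48 in mottled, 7.70 and 6.78 in heavily mottled and 7.23 and 6.95 in pseudoagouti mice. It was highest in the yellow kidneys, where Celsr3 was among the lowest. The neuron list in kidney lay between 5.66 and 6.33 in all mice, with 5.66 and 6.30 in yellow and 5.97 and 6.13 in pseudoagouti mice. Their part in the Celsr3 slope was not tested.

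**Figure D3:**
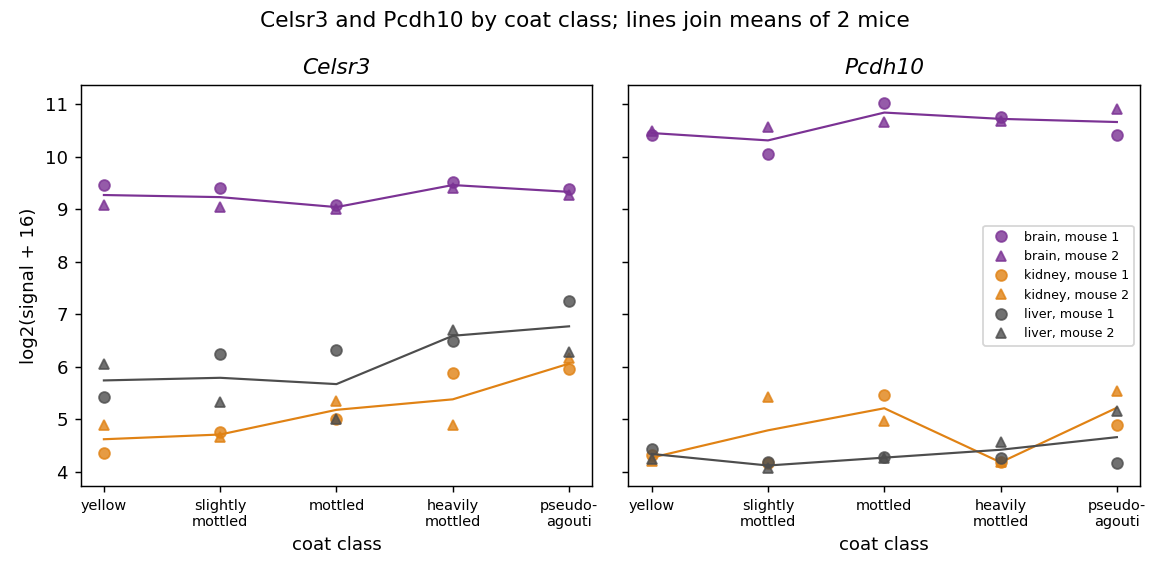
Log2(signal + 16) of Celsr3 (left) and Pcdh10 (right) by coat class in brain, kidney and liver, with circles for mouse 1, triangles for mouse 2 and lines through the means of 2 mice. Celsr3 climbs toward pseudoagouti in kidney (0.35 per step) and liver (0.29) at low signal and stays level in brain (0.04), while Pcdh10 has no called slope.

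Pcdh10 had the second steepest slope in the mean of tissues, 0.10 ± 0.064 (exact permutation p = 0.156, adjusted p = 1 in limma), with 0.08 ± 0.057 in brain, 0.13 ± 0.125 in kidney and 0.09 ± 0.085 in liver. In brain its signal was 1345.9 and 1414.2 in yellow, 1038.1 and 1504.0 in slightly mottled, 2058.6 and 1593.4 in mottled, 1719.1 and 1614.0 in heavily mottled and 1349.4 and 1900.0 in pseudoagouti mice. The yellow and slightly mottled brains lay below the mottled and heavily mottled ones, and the pseudoagouti brains overlapped all of the other classes. In kidney all values lay between 2.0 and 30.6 and in liver between 0.8 and 19.6. The 6 probe sets of the gene did not move together. Their slopes in the mean of tissues were 0.10, 0.17, -0.05, 0.01, 0.06 and 0.11, from the strongest probe set to the weakest. The slope of the second was 0.33 in kidney, where its mean signal was 12.3, and 0.03 in brain, where it was 1481.3.

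The slopes of the other Celsr genes stayed near 0 in the mean of tissues, at -0.06 ± 0.071 for Celsr1 and 0.02 ± 0.046 for Celsr2. Pcdhb7 shared the lowest slope with Celsr1, at -0.06 ± 0.065. Among the beta genes above the filter the slopes ran from -0.06 to 0.06, and among the delta-1 genes from -0.04 to 0.02. None of the genes of the planar cell polarity, partner, regulator and other cadherin lists was called for a slope in the mean of tissues.

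**Figure D4:**
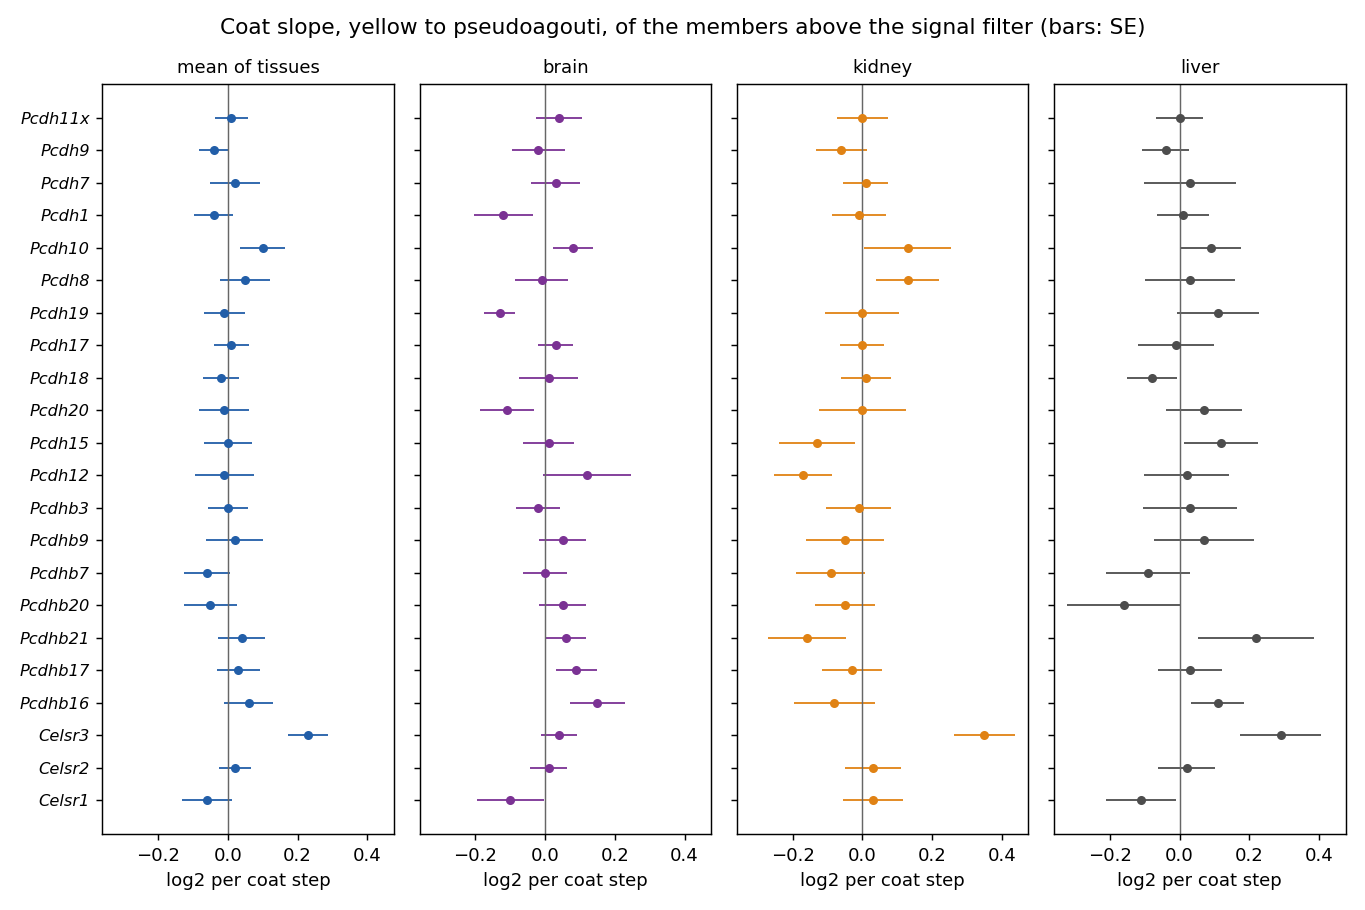
Coat slope in log2 per step from yellow to pseudoagouti for the 22 members above the filter, in the mean of tissues, brain, kidney and liver, with points at the slope and bars of 1 SE. Celsr3 stands farthest right in the mean of tissues (0.23), kidney (0.35) and liver (0.29), and no slope passed the adjusted test.

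The mouse number, which is balanced over the coat classes, was set beside these values because many probe sets moved with it. In kidney 5.95% of all probe sets were higher and 3.97% lower in mice numbered 2 than in mice numbered 1, in liver 4% and 4.6%, and in brain 0% and 0%. The labels do not say what the number stands for. The highest signal on an array was 16761 to 26823 in brains numbered 2 and 23262 to 38492 in brains numbered 1, and it was 19007 to 25922 in kidneys numbered 2 and 22991 to 45410 in kidneys numbered 1. In livers it was 34084 to 50092 in number 2 and 39228 to 47341 in number 1. In kidney 19 of the 22 genes had a difference of number 2 minus number 1 above 0, with a median of 0.32, while the median of all probe sets was 0.05. In brain 15 did, with a median of 0.07 against -0.02 for all probe sets, and in liver 16 did, with a median of 0.24 against 0.04.

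Only Pcdhb16 was called, and only in kidney. Its kidney signal was 209.8 to 409.1 in mice numbered 2 and 94.0 to 277.3 in mice numbered 1, with a difference of 0.71 ± 0.18 (adjusted p = 0.0411) and number 2 the higher in 5 of 5 classes. With 1 mouse left out, 4 genes were called without mottled 1 or without mottled 2, and 0 without any of the other 8 mice. The share of all probe sets called in these fits is not given here, so whether the members moved apart from it cannot be told. Before adjustment, p was under 0.05 for 6 genes in brain, 7 in kidney and 5 in liver, against 19.2%, 32.7% and 26.1% of all probe sets. The largest of these differences in brain was that of Pcdh12, at -0.67 ± 0.27 (adjusted p = 0.222), and in liver that of Pcdhb21, at -0.88 ± 0.29 (adjusted p = 0.0909), where Pcdh12 had -0.63 ± 0.23 (adjusted p = 0.125).

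The endothelial list, like Pcdh12, tended to be lower in mice numbered 2 in brain and liver. Its mean was 7.67 to 7.92 in brains numbered 2 and 8.01 to 8.45 in brains numbered 1, and 0 of its 7 genes were higher in number 2. In liver it was 8.67 to 9.10 in number 2 and 9.09 to 9.39 in number 1, with 2 of 7 higher. The list and Pcdh12 did not run in parallel over the liver pairs. In yellow livers the list had 9.15 in mouse 1 and 9.09 in mouse 2, where Pcdh12 had 261.7 and 75.4. In mottled livers the list had 9.39 and 8.76, where Pcdh12 had 295.7 and 268.7. In kidney it was 10.11 to 10.58 in number 2 and 9.95 to 10.40 in number 1, with 5 of 7 higher, and Pcdh12 differed by -0.11 ± 0.19 there. The part of endothelial RNA in these differences was not tested.

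**Figure D5:**
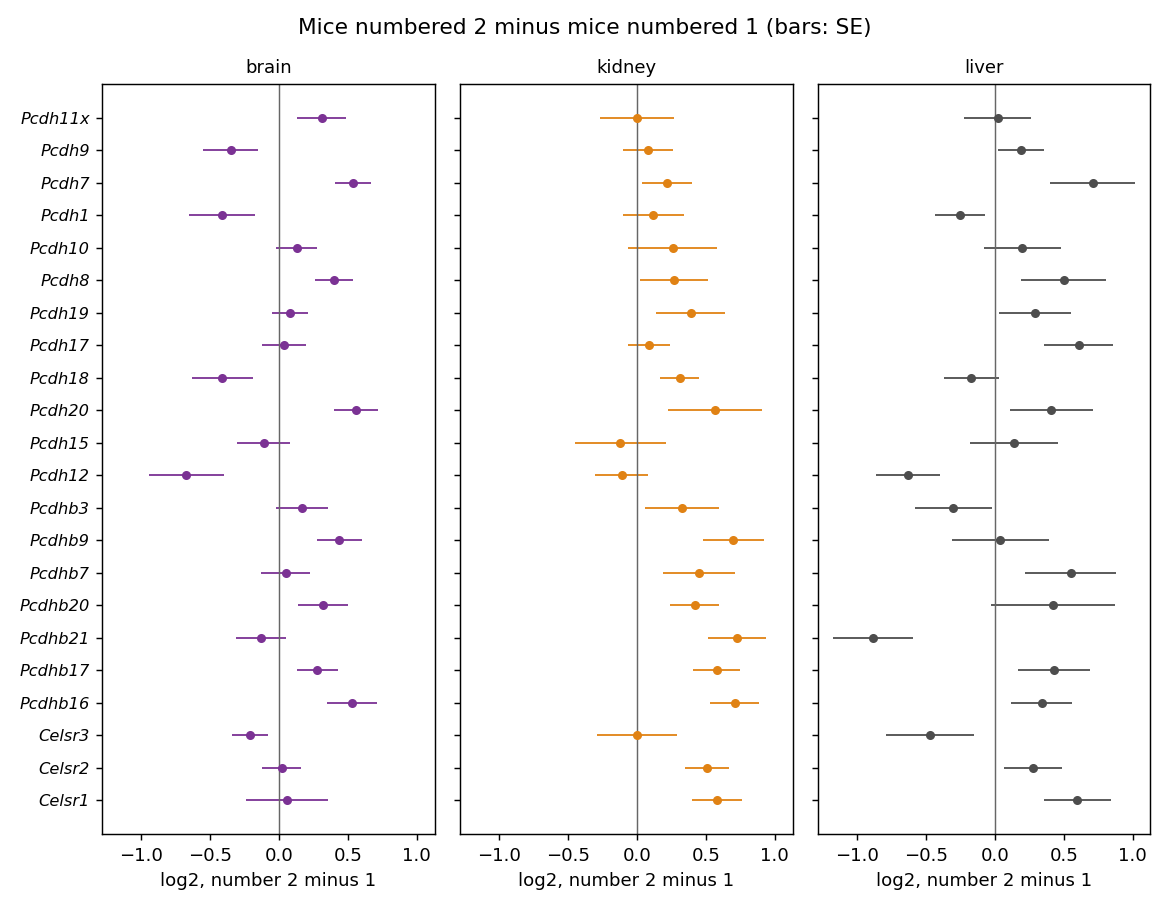
Difference of mice numbered 2 minus mice numbered 1 in log2, with coat class as a block, for the 22 members above the filter in brain, kidney and liver, with points at the difference and bars of 1 SE. In kidney 19 of 22 points lie above 0 and Pcdhb16 (0.71) alone passed the adjusted test.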

How the data were processed

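Total RNA of brain, kidney and liver of 10 mice was measured on 30 arrays. The authors deposited 1 linear intensity for each probe set, made with MAS5 per the submitters' processing notes. Its version is not given in the sources used here. They were used unchanged, on the scale log2(signal + 16). The table lists 45101 probe sets, of which 64 are controls and were dropped. Of the rest 34945 had 1 symbol, 932 several and 9160 none. Probe sets were tested where the highest of the 3 tissue means, taken on the log scale, reached the median of that quantity (signal 242), which kept 22519 probe sets. This was 50.0% of all probe sets, while 66.8% of the probe sets that were the strongest of their gene passed.

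The fits used limma 3.58.1 under R 4.3.3 (eBayes with a mean-variance trend), with Benjamini-Hochberg adjustment over all 22519 probe sets and a threshold of 0.05. For tissues the mouse was a fixed block and a call also needed a log2 difference of 1 or more. The mouse effect was a moderated F-test of all mouse terms, adjusted for tissue. R was the mean SD across mice within tissues over the mean SD across tissues within mice, a formula chosen here. Coat slopes were fitted per step on mouse means and per tissue, and number differences with coat class as a block. The precision is limited by the number of mice, and the labels do not say whether litters differed.

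Members and gene lists were chosen with earlier results of these data known. By rule, Pcdh10, Celsr3 and the gene with the largest brain difference from the nearer tissue in each subfamily were described. So were genes higher in kidney or liver than in brain, the most variable in brain and those with the steepest coat slopes. For each further list values were given for up to 4 genes, and some other genes were named. Outside this rule, signals by tissue were also given for Pcdh7, Pcdh8, Pcdh9, Pcdh15, Pcdh17, Pcdh18, Pcdh19, Pcdhb9 and Celsr2. The remaining members are described mainly by family. The fits were tested on simulated data. The alternatives were other offsets, filters, normalisations and probe sets, other blocks, the highest signal of the array as a covariate and each mouse left out.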

Additional observations from a re-analysis of the deposited data

Results flagged for a closer look

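Each of the 66 combinations of a gene above the filter and a tissue was searched for a mouse far from the other 9. The measure was Dixon's ratio, the gap of that mouse to the nearest mouse over the whole range. It was taken on the log scale with the main offset, not on the linear signals printed below. At low signals such a ratio depends on the offset. Dixon's 95% limit for 10 values was used, which chance alone passes in about 1 of 20 groups. There were 2 cases, both in liver and both in pseudoagouti mice. Pcdhb7 was at 1.8 in the liver of pseudoagouti 1, while the other livers had 20.6 to 55.3 (ratio 0.52). Pcdh10 was at 19.6 in the liver of pseudoagouti 2, while the other livers had 0.8 to 7.7 (ratio 0.54). Both genes have their highest signal in brain, where neither had a mouse past the limit.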

How the results depend on the processing

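Of 1129 values recomputed under other settings, 1097 were classed as unchanged. For a count this meant staying within 1.5 times its main value, and for a single gene keeping its call. A median SD had to stay within the spread over members, and the only one that moved was that of liver, at 0.29 for an offset of 64. Many of the values were counts of members called for a coat slope or mouse effect, which were 0 in every setting and could hardly move. No difference or slope of a single gene changed direction. The tissue counts that moved by over 1.5 times were of kidney against liver, with 4 members higher for an offset of 64, against 10 for an offset of 1 and 6 to 9 with 1 mouse left out, and members lower at 2 for an offset of 1, 0 for an offset of 64 and 2 without the filter. With 1 mouse left out the members lower numbered 1 to 2, the second being Celsr3, at -1.06 without mottled 2, -1.01 without pseudoagouti 2 and -1.42 for an offset of 1. Brain counts moved less: over the settings that kept the same 22 genes, brain minus kidney had 16 or 17 members higher, the 16 for an offset of 64 and without yellow 1, heavily mottled 1, pseudoagouti 1 or slightly mottled 2, and brain minus liver had 3 members lower after quantile normalisation and 2 otherwise. Celsr1 in brain minus liver was -1.13, past the fold threshold, after quantile normalisation, which moved the median of all probe sets in that contrast to -0.05, from the 0.15 it had as deposited. Pcdh1 in kidney minus liver was -0.99 for an offset of 64.

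For the mouse number the brain count of higher members was 1 without the coat class block. The kidney count was 3 for an offset of 64, 0 after quantile normalisation, 0 without the coat class block and 0 to 4 with 1 mouse left out. Neither these counts nor the tissue counts above have the share of all probe sets in the same setting beside them. They describe how the counts move and not how the members move against all probe sets.

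The coat slope of Celsr3 in the mean of tissues ranged from 0.12 to 0.34 over the settings, and 0.19 to 0.26 with 1 mouse left out, with adjusted p of 0.911 to 1. That of Pcdh10 ranged from 0.05 to 0.22. The 3 tissues of a mouse share the animal, and without that pairing as a replicate block the counts were again 18 higher and 2 lower for brain minus liver, 17 and 3 for brain minus kidney and 7 and 1 for kidney minus liver. Every mouse has all 3 tissues, so the differences themselves are the same with and without the pairing. The counts could change only through the adjusted p. The mouse number does not mark a shared day or litter in the labels, and the number difference of 2 coat classes correlated by -0.01 to 0.51 in brain, 0.01 to 0.53 in kidney and 0.13 to 0.39 in liver. With the number as a replicate block 0 members were called for the mouse effect and 0 for any coat slope. The slopes, 0.23 for Celsr3 and 0.10 for Pcdh10, cannot change in that fit, because the number is balanced over the coat classes.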
